A study of Mus musculus with 2 samples.

Results

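The 5 genes described here, Kcnk1, Kcnk2, Kcnk3, Kcnk6 and Kcnk9, encode two-pore-domain potassium (K2P) channels, and they were followed together with every antisense transcript model that lies on the opposite strand of 1 of them. Members were found by gene name in both tables of reads per transcript model, over every class of model, and antisense models by their coordinates in the deposited annotation. This gave 41 sense models in replicate 1 and 42 in replicate 2, with 3 and 4 antisense models, of 88713 and 85694 models without spike-ins. The 5 genes stand among 16457 annotated genes with reads. The study sequenced long reads of whole adrenal glands from male B6CASTF1/J mice, an F1 hybrid of a B6 and a CAST parent, aged 2 months and with no treatment in the labels. Its 2 libraries form 1 group, so the design holds no contrast between conditions, and every test below sets replicate 1 against replicate 2. The labels do not show that the libraries come from separate animals, so the spread between them may be technical.

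K2P channels pass a background flow of potassium out of the cell that holds the resting membrane voltage negative. A working channel is a pair of subunits, each with a pair of pore loops. In the aldosterone-making cells of the adrenal cortex this current keeps voltage-gated calcium channels closed until angiotensin II or potassium depolarises the cell, which starts aldosterone synthesis. Kcnk3 and Kcnk9 encode the acid-sensitive subunits TASK-1 and TASK-3, Kcnk2 encodes TREK-1, which answers to stretch, lipids and heat, and Kcnk1 and Kcnk6 encode the weakly conducting subunits TWIK-1 and TWIK-2.

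Replicate 1 held 800029 reads on annotated genes and replicate 2 held 638310, and levels are given as CPM, read counts scaled to these totals. In long-read data a read is taken to stand for a molecule, so levels of genes were compared without division by length. Whether longer molecules were read less often was not tested, and the levels are not corrected for it. A count of 3 reads, taken as the limit that a count of 0 allows, equals 3.75 CPM in replicate 1 and 4.70 CPM in replicate 2. All 5 marker genes of the steroidogenic cortex and all 5 of chromaffin cells had reads, and 4 of 5 kidney markers were at 0. Of 8063 genes tested between the libraries, 275 (3.41%) were called, which means an adjusted p under 0.05 in an exact binomial test and at least a 2-fold ratio. Markers of fat cells and of red blood cells differed between the libraries. The summed level of 5 adipocyte markers was 5321 CPM in replicate 1 and 2057 CPM in replicate 2, with 4 of 5 called, and that of 5 erythroid markers was 2014 and 843 CPM, with 4 of 5 called. In whole tissue, fewer cells of a type and less RNA per cell cannot be told apart.

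The sequences that carry the Kcnk3 and Kcnk2 findings follow, in mm10 coordinates and read 5′ to 3′ on the gene's strand. They are the flanks of the annotated Kcnk3 splice, the annotated part of an exon that some Kcnk3 reads place between them, the Kcnk2 exon that reads hold or skip, and short stretches at transcript ends. Capitals mark every A in the stretch after the inner Kcnk3 end, and the poly(A) signal AATAAA in the stretches at the annotated Kcnk3 end and the inner Kcnk9 end. The Kcnk9 stretch runs past the inner end of replicate 2, at 72506988, and stops short of that of replicate 1, at 72506966. The other sequences carry no capitals.
Kcnk3 end of exon 1, chr5:30588570-30588599: acttcgccatcaccgtcatcaccaccatcg
Kcnk3 start of exon 2, chr5:30621891-30621920: gctatggtcatgcggcgcccagcacggacg
Kcnk3 exon between them, chr5:30621373-30621537: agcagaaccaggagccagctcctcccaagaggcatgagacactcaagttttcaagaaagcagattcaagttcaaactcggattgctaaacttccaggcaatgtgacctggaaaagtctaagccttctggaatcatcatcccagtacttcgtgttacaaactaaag
Kcnk3 after the inner end, chr5:30623542-30623571: tAAAAAAgAAAgAAAgAAAAAAAAAAAAAA
Kcnk3 before the annotated end, chr5:30625242-30625271: cctAATAAAtgctgtccatggagaccaggc
Kcnk9 before an inner end, minus strand, chr15:72506978-72507007: tgAATAAAtaagacatattaaatgttgttt
Kcnk2 cassette exon, minus strand, chr1:189295594-189295711: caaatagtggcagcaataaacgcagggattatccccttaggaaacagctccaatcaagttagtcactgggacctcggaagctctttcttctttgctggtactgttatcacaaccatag

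Kcnk3 carried nearly all K2P reads of the gland. The gene (ENSMUSG00000049265.7, chr5:30588170-30625271, plus strand) had 2554 reads in replicate 1 and 2492 in replicate 2, which is 3192 and 3904 CPM. Its mean of 3548 ± 503 CPM (SD, n = 2) placed it 14th of the 16457 genes by level. It held 97.1% of the reads of the 5 genes in replicate 1 and 97.3% in replicate 2. On TMM-scaled counts, the log2 ratio of replicate 1 over replicate 2 was -0.19 (adjusted p = 6.89e-05, exact binomial test with Benjamini-Hochberg adjustment), short of the 2-fold bar. With the trend of ratios over transcript length removed, the log2 ratio was -0.05 and the adjusted p was 0.644.

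The other subunits had far fewer reads. The annotated transcript of Kcnk9 has 12300 bases and the protein-coding one of Kcnk3 has 3811, and the part of length in their levels was not tested. Kcnk9, which encodes the TASK-3 subunit that pairs with TASK-1, had 31 reads in replicate 1 and 19 in replicate 2, or 38.7 and 29.8 CPM (34.3 ± 6.35, SD, n = 2; ENSMUSG00000036760.7, chr15:72501089-72546340, minus strand). Kcnk1 had 28 and 27 reads, or 35.0 and 42.3 CPM (38.6 ± 5.16; ENSMUSG00000033998.9, chr8:125995170-126030685, plus strand). Kcnk2 had 18 and 21 reads, or 22.5 and 32.9 CPM (27.7 ± 7.35; ENSMUSG00000037624.15, chr1:189207930-189402273, minus strand). The values of these 3 genes overlapped between neighbours in the order of level. The level of Kcnk9 rested largely on single-exon reads: without the genomic class, the class of reads with no compatible splice pattern, it averaged 12.0 CPM, below Kcnk1 at 37.9 CPM and below Kcnk2. Of its reads in replicate 1, 12 are on a model of 1 base, and without such models it had 19 reads in each library and a log2 ratio of -0.22 (adjusted p = 0.887, exact binomial test), the other way from the ratio with them. None of them passed the same exact binomial test between the libraries, with log2 ratios of 0.47 for Kcnk9, -0.17 for Kcnk1 and -0.43 for Kcnk2 and adjusted p of 0.587, 0.915 and 0.669. Kcnk6 had 0 reads in replicate 1 and 2 in replicate 2, at or under the limit of a count of 0, and was not tested (ENSMUSG00000046410.10, chr7:29221926-29232515, minus strand). So 0 of the 4 tested members were called, beside 3.41% of all genes; by an adjusted p alone, Kcnk3 passed, beside 11.1% of all genes.

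**Figure D1:**
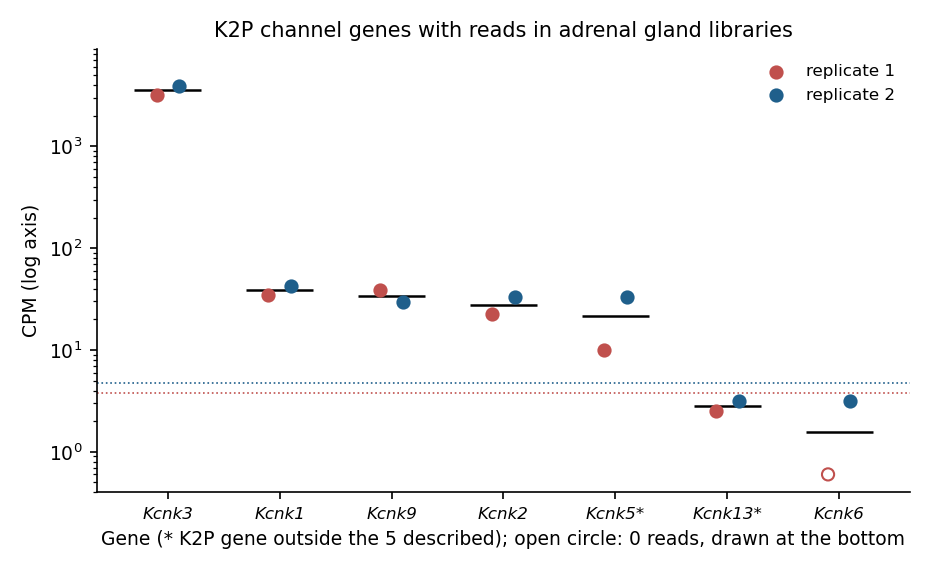
CPM on a log axis of each K2P gene with reads, as a point per library (replicate 1 left, replicate 2 right), with a black line at the mean of 2 libraries and dotted lines at the CPM of 3 reads in each library. Kcnk3 lies at 3192 and 3904 CPM, the Kcnk1, Kcnk9 and Kcnk2 points lie between 22.5 and 42.3 CPM, and Kcnk6 lies under both dotted lines.

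Of the 9 K2P genes outside the 5, Kcnk5 and Kcnk13 had reads. Kcnk5, which encodes the alkaline-activated subunit TASK-2, had 8 reads in replicate 1 and 21 in replicate 2, a log2 ratio of -1.53 (adjusted p = 0.0449, exact binomial test), and was called, beside 1.05% of all genes called higher in replicate 2 and 2.36% called higher in replicate 1. The call was lost under 3 of 7 other settings, with adjusted p between 0.0277 and 0.106 over all of them. Kcnk13, a subunit that halothane inhibits, had 2 reads in each library. Kcnk4, Kcnk7, Kcnk10, Kcnk12, Kcnk15, Kcnk16 and Kcnk18 had no read in either library, under the same limits of 3.75 and 4.70 CPM.

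Kcnk3 has 2 annotated exons. The first holds 283 coding bases, and the last, of 3381 bases, holds the other 944 coding bases and the 3′ UTR of 2434 bases. The protein-coding transcript Kcnk3-201 took 1871 of 2554 reads in replicate 1 (73.3%, Wilson 95% interval 71.5 to 74.9) and 2059 of 2492 in replicate 2 (82.6%, 81.1 to 84.1). The share in replicate 1 minus that in replicate 2 was -9.37 percentage points (adjusted p = 6.62e-13, Fisher's exact test over 5334 genes), under the bar of 10 points at which 0.487% of genes were called. The remaining reads were mostly of the genomic class, with 602 reads in replicate 1 (23.6%, 22.0 to 25.3) and 363 in replicate 2 (14.6%, 13.2 to 16.0). Apart from 2 reads in replicate 1, these were on single-exon models over the last exon. In replicate 2, 125 of them were on a model that begins before that exon, at 30621537, and so also covers intron sequence. The median gene had 0.146% of such single-exon reads in replicate 1 and 0% in replicate 2, and 3.28% and 4.48% of the 5334 genes reached the share of Kcnk3. Among reads outside the genomic class, Kcnk3-201 took 95.9% in replicate 1 and 96.7% in replicate 2 (adjusted p = 0.870, Fisher's exact test), a difference of -0.86 points.

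Exon 1 of Kcnk3 was also joined to sites that the annotation does not hold. Of the reads that start at the annotated start and are spliced from exon 1, 80 of 1953 in replicate 1 (4.10%, 3.30 to 5.07) and 67 of 2129 in replicate 2 (3.15%, 2.49 to 3.98) went to another acceptor than exon 2, a mean of 3.62% ± 0.67 (SD, n = 2). These were 11 junctions, and 7 of them were seen in both libraries. New spliced models, which TALON calls NIC and NNC, took 3.33% and 3.01% of spliced Kcnk3 reads, and the median was 5.66% and 6.45% over 4956 genes with at least 20 spliced reads in each library. Of those genes 69.0% had at least the mean share of Kcnk3. Among the 43 genes with at least 1000 spliced reads in each library the medians were 1.63% and 2.09%, and 37.2% had at least the mean share of Kcnk3.

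Apart from those spliced past the gene and from 4 junctions of 1 read each, the reads fell on 4 stretches of the intron. An exon 25.3 kb from the start (chr5:30613469-30613691) was held by 40 of 1950 spliced reads in replicate 1 (2.05%, 1.51 to 2.78) and 39 of 2129 in replicate 2 (1.83%, 1.34 to 2.49). Its acceptor was used in a pair of forms 3 bases apart, with 16 and 13 reads from exon 1 at the first and 24 and 26 at the second. The order of the 2 forms was the same in both libraries. In 23 and 25 of its reads the transcript went on to exon 2.

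A further exon, 33.2 kb from the start and 354 bases before exon 2 (chr5:30621367-30621537), was held by 22 reads in replicate 1 (1.13%, 0.75 to 1.70) and 18 in replicate 2 (0.85%, 0.54 to 1.33), and 22 and 17 of them went on to exon 2. The annotation has this exon, from 6 bases further in, as the first exon of the noncoding transcript Kcnk3-202, which itself had no read. Its length of 171 bases is a multiple of 3. In the frame set by the 283 coding bases of exon 1, the 54 codons that could be read from the sequence printed above held 0 stop codons. Codons that include any of the first 6 bases of the exon were not read, so a stop codon among them would have been missed. The exon at 25.3 kb, of 223 or 220 bases, is not a multiple of 3.

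The third stretch, 26.9 kb from the start, was the last exon of 13 reads in replicate 1 and 12 in replicate 2, and in 0 of them was it joined to exon 2. Such transcripts hold the coding part of exon 1, which includes the start codon, but not the coding part of exon 2. The fourth, from 18.4 kb, had 7 and 6 reads. In 4 reads of replicate 1 and 2 of replicate 2, exon 1 was spliced past the whole gene to 19.2 kb beyond its end, into Slc35f6, a gene of the solute carrier family, of whose 53 and 43 reads these were 7.55% and 4.65%.

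**Figure D2:**
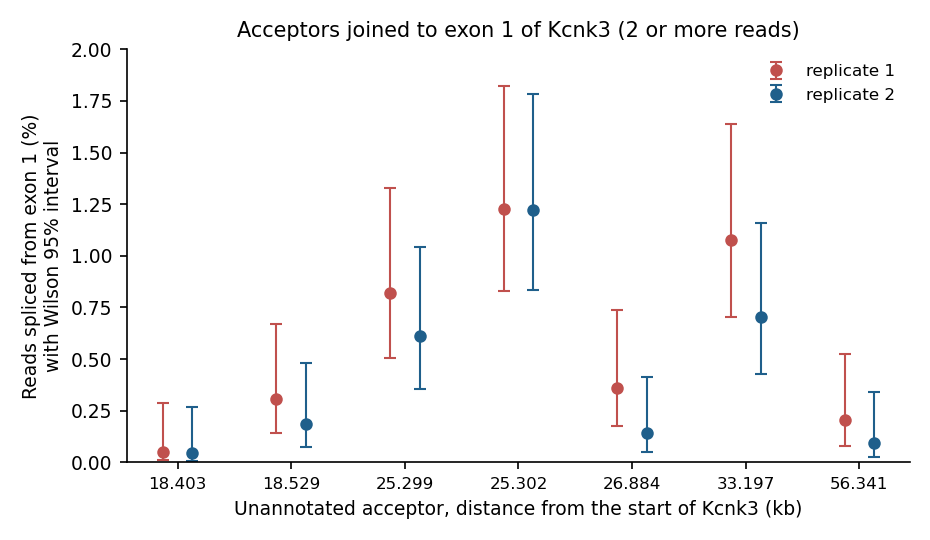
Percent of reads spliced from exon 1 of Kcnk3 that go to each unannotated acceptor with at least 2 reads, against the acceptor's distance from the gene start in kb, as points with Wilson 95% intervals (replicate 1 left, replicate 2 right). The acceptors at 25.302 kb, 33.197 kb and 25.299 kb lead in both libraries, and at each site the intervals of the libraries overlap.

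Kcnk3 models ended at a pair of places in the last exon. Models that end at the annotated end took 2475 reads in replicate 1 and 2301 in replicate 2. Of these, 1871 and 2059 were on Kcnk3-201, whose end is set by the annotation, so where these reads stopped is not known. The other end lies 1729 and 1730 bases before it. Models that end there took 48 reads in replicate 1 and 174 in replicate 2, where 125 were single-exon. Spliced reads outside Kcnk3-201 on models with this inner end were 48 in replicate 1 and 49 in replicate 2. Those on models with the annotated end were 4 and 4. Of the 30 bases after this inner end, 26 are A, where the median stretch of 30 bases in the exon has 6 and the highest has 27. No AATAAA lies in the 50 bases before it. The only AATAAA of the exon ends 21 bases before the annotated end. Model ends in these files are shared between models, so they are not the ends of single reads.

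Nearly all antisense reads of the 5 genes lay on Kcnk3, which also held nearly all their sense reads. Its antisense models had 254 reads in replicate 1 and 130 in replicate 2, or 9.95 and 5.22 per 100 sense reads, a mean of 7.58 ± 3.34 (SD, n = 2). As a share of both strands this was 9.05% (8.04 to 10.2) in replicate 1 and 4.96% (4.19 to 5.86) in replicate 2, and the intervals do not overlap. The ratio was 1.91-fold higher in replicate 1 (adjusted p = 3.33e-06, Fisher's exact test), beside 0.474% of 2951 genes that passed this test. The other members had 2 antisense reads in all. Kcnk9 had 1 in replicate 2, from an intron (chr15:72541102-72545052), and Kcnk6 had 1 in replicate 1 (chr7:29224638-29224918). Kcnk1 had 0 antisense reads beside its 28 and 27 sense reads (intervals up to 12.1% and 12.5% of both strands), and Kcnk2 had 0 beside 18 and 21 (up to 17.6% and 15.5%), and these intervals include the shares of Kcnk3.

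All antisense models of Kcnk3 had a single exon and lay on the minus strand over the last exon. Single-exon models held 94.3% of the antisense reads of all genes in replicate 1 and 94.1% in replicate 2. In replicate 1, 82 reads lay on chr5:30621913-30623628, across 925 bases of the coding part, stop codon included, and the first 791 bases of the 3′ UTR. A further 172 lay on chr5:30623628-30624017, within the 3′ UTR. In replicate 2, 25 reads lay on chr5:30621896-30623076, 104 on chr5:30623076-30623901 and 1 on chr5:30624667-30627879, which runs 2608 bases past the gene's end. The models thus covered the same stretch with different borders in the libraries, and the more downstream of the first pair held more reads in each. No antisense model crossed an intron or reached exon 1. The 30 bases that follow the 3′ end of an antisense model on its own strand were counted where they are in the exon. They held 3 to 6 A, beside the median of 6 A in a stretch of the exon's sense strand. The 3′ ends in replicate 1, and those at 30621896 and 30624667 in replicate 2, are also edges of sense models. That at 30623076 in replicate 2 is an edge of the neighbouring antisense model. Such ends need not be ends of reads, so the A counts do not show what follows single antisense reads.

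**Figure D3:**
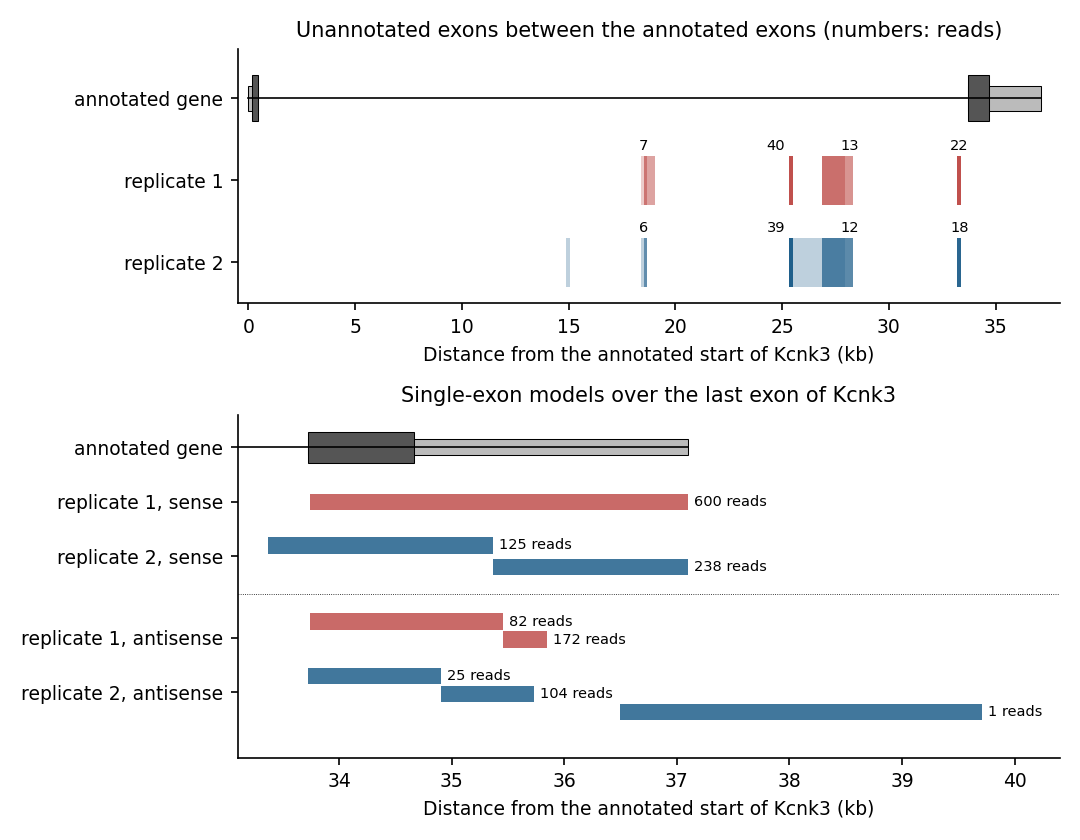
Upper panel: the annotated Kcnk3 gene (dark: coding, light: untranslated) and the unannotated exons of each library by distance from the gene start in kb, with the reads of each stretch above it and deeper colour for more reads. Lower panel: single-exon models over the last exon on the sense and the antisense strand. The antisense models, with 254 reads in replicate 1 and 130 in replicate 2, lie over the same exon as the single-exon sense models of 600 reads in replicate 1 and of 125 and 238 reads in replicate 2.

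The antisense level of Kcnk3 was high for a gene of its level. Among 46 genes with at least 1000 sense reads in each library it ranked 1st by mean antisense reads per 100 sense reads, and the next gene had 2.03. Among the 5334 genes with at least 20 sense reads in each library, 26.6% had antisense reads in both, the median was 0, and 7.33% reached the mean of Kcnk3. The ERCC spike-ins, synthetic RNAs of a single strand, had 39 antisense reads beside 5731 sense reads in replicate 1 and 40 beside 5156 in replicate 2. That is 0.681 and 0.776 per 100, on 3 and 2 spike-in sequences. Replicate 1, which had more antisense reads on Kcnk3, also had more single-exon sense reads there (23.5% against 14.6%), while antisense reads over all genes took 2.44% of its reads and 2.38% of those of replicate 2. The part of single-exon reads in the antisense difference was not tested.

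**Figure D4:**
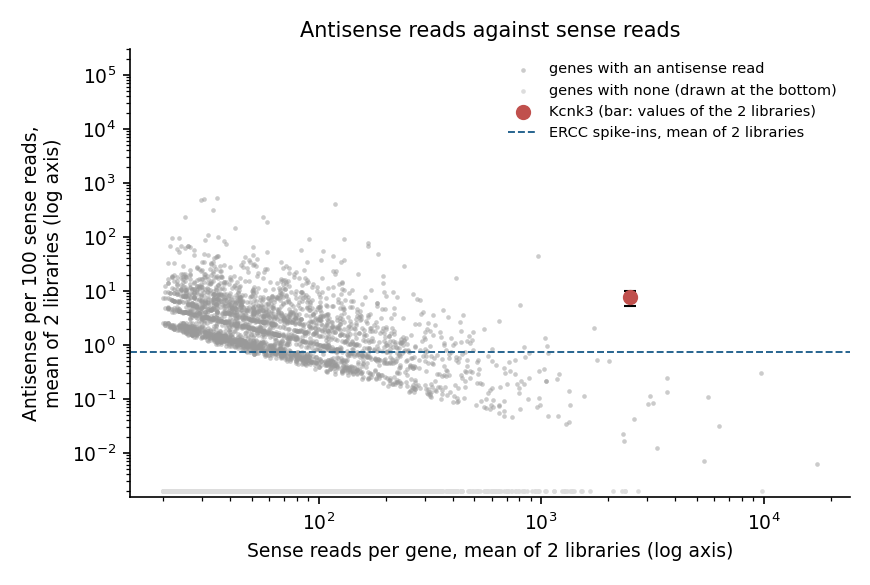
Antisense reads per 100 sense reads against sense reads per gene, both as means of 2 libraries on log axes, for 5334 genes with at least 20 sense reads in each library, with genes that have no antisense read drawn at the bottom. Kcnk3 (red, bar from 5.22 to 9.95) lies above the other genes with at least 1000 sense reads in each library and above the dashed line of the ERCC spike-ins.

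A further, annotated gene faces the other end of Kcnk3. The first exon of Gm9899, on the minus strand (chr5:30588371-30588619), overlaps 229 bases of Kcnk3 exon 1. Models that start in it had 4 reads in replicate 1 and 1 in replicate 2, and 1 read of replicate 2 on a model of the neighbouring gene Cib4 also reached this exon. These reads belong to annotated genes and are not counted as antisense above.

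Kcnk1 was read in its annotated form. The protein-coding transcript Kcnk1-201, of 3 exons, took 27 of 28 reads in replicate 1 (96.4%, 82.3 to 99.4) and 25 of 27 in replicate 2 (92.6%, 76.6 to 97.9). Kcnk1-202, which has 4 exons, had 1 read in each library. The 1 remaining read, in replicate 2, was a single-exon one. New spliced models of Kcnk1 were not seen.

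Kcnk2 starts at a distal first exon or at first exons 55.3 kb or more further into the gene, and its reads showed both. Of the spliced reads, 14 of 15 in replicate 1 (93.3%, 70.2 to 98.8) and 11 of 20 in replicate 2 (55.0%, 34.2 to 74.2) began at the distal exon. The proximal first exons began 0 of 15 in replicate 1 (interval up to 20.4%) and 9 of 20 in replicate 2 (45.0%, 25.8 to 65.8). Replicate 1 did have 2 reads on a single-exon model over the proximal first exons, and replicate 2 had 1. The intervals for the proximal exons do not overlap, but this difference was singled out after its values were seen and was not tested.

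The starts of the protein-coding transcript Kcnk2-209 (9 reads in replicate 1 and 7 in replicate 2) and of Kcnk2-203 (2 and 3 reads), which is annotated as a target of nonsense-mediated decay, lie in the distal exon. Kcnk2-206 (0 and 4 reads), Kcnk2-205 (0 and 1) and Kcnk2-201 (0 and 1) start in the proximal ones. A new combination of known splice sites from the distal exon had 2 and 1 reads, and another from the proximal exons had 0 and 3. RefSeq (GRCm38.p6) gives promoters, from 250 bases before to 50 after a start, for 2 of the 5 genes, Kcnk1 and Kcnk2. The distal Kcnk2 promoter and that of the Kcnk2-206 start are shown, and reads were seen from both starts. The promoters of the Kcnk2-205 and Kcnk2-201 starts, with 1 read each in replicate 2, are described below but not shown. Neither promoter shown holds GGGCGG or TATAAA on either strand, letters that 35.7% and 13.6% of 32851 promoters of this length hold. Both are read on the minus strand.
Kcnk2 distal promoter, chr1:189402224-189402523: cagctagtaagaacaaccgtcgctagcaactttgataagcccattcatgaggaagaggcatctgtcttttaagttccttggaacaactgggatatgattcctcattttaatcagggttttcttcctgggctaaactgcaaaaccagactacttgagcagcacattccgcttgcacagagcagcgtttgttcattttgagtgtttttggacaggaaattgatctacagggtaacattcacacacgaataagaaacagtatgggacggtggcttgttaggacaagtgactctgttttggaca
Kcnk2 proximal promoter, chr1:189343304-189343603: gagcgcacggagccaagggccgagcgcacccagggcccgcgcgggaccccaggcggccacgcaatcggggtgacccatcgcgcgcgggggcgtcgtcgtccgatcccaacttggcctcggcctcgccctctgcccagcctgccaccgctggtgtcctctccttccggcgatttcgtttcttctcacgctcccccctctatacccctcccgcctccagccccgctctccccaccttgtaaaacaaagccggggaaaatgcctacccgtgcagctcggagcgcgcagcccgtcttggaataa
The distal promoter has 43.0% G and C and 6 CG pairs, and the proximal one 68.7% and 33 CG pairs, beside medians of 52.7% and 7 over all promoters. RefSeq gives 2 further proximal Kcnk2 promoters, which are not alike. That at chr1:189343658-189343957 has 74.7% G and C, 33 CG pairs and a GGGCGG, and that at chr1:189344143-189344442 has 54.7%, 3 CG pairs and no GGGCGG. Neither holds TATAAA.

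The cassette exon of Kcnk2 printed above is a coding exon of 118 bases, which is not a multiple of 3. It was held by 11 of 15 reads in replicate 1 (73.3%, 48.0 to 89.1) and by 14 of 20 in replicate 2 (70.0%, 48.1 to 85.5), and skipped by 4 and 6. The shares differed by less than their intervals. Skipping was seen with the distal first exon (3 and 3 reads), with the proximal ones (0 and 3 reads), and in 1 read of replicate 1 that starts inside the gene. Pdcd5-ps, a pseudogene inside Kcnk2 on the same strand, had 9 and 4 reads of its own.

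**Figure D5:**
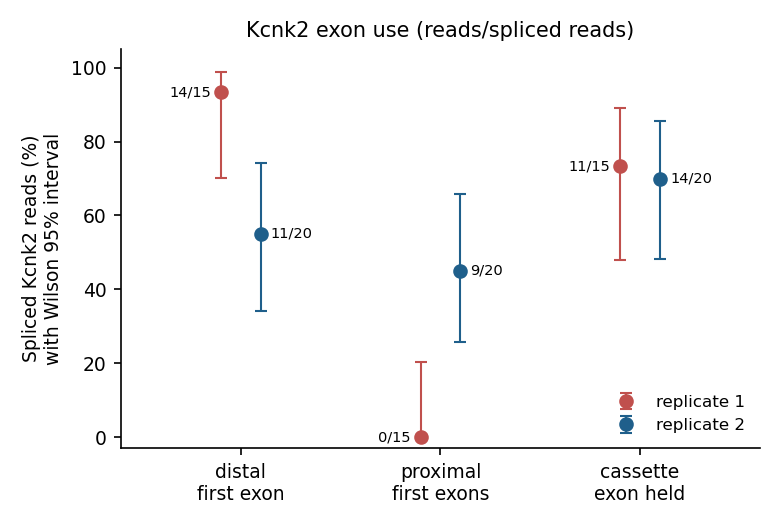
Percent of spliced Kcnk2 reads, with Wilson 95% intervals and the reads behind each point (replicate 1 left, replicate 2 right), that begin at the distal first exon, begin at the proximal first exons, or hold the 118-base exon. The points lie apart at the first exons, a difference that was not tested, with 0 of 15 and 9 of 20 reads at the proximal ones, and lie together at the 118-base exon, with 11 of 15 and 14 of 20.

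Most Kcnk9 reads did not follow its single annotated transcript. Kcnk9-201, of 2 exons and 12300 bases, took 7 of 31 reads in replicate 1 (22.6%, 11.4 to 39.8) and 2 of 19 in replicate 2 (10.5%, 2.94 to 31.4), and single-exon reads took 18 and 13. Models with an end 5.88 and 5.90 kb before the annotated end held 16 reads in replicate 1 and 15 in replicate 2. An AATAAA lies 34 and 12 bases before that end, 1 of 3 in the last exon of 11956 bases, and the 30 bases after the end hold 8 and 6 A. In replicate 1, 12 of these reads are on a model of 1 base, at 72506966, which is also an edge of other Kcnk9 models of that library. Where these 12 reads began and ended is thus not known. Over all genes, models of 1 base held 1588 reads of replicate 1 and 659 of replicate 2. Without models of 1 base, Kcnk9-201 took 36.8% of the 19 remaining reads in replicate 1, with 10.5% in replicate 2, where Kcnk9 had no such model. An intron of 1473 bases inside the last exon (chr15:72510603-72512075), which starts with GT and ends with AG, was removed in 3 and 2 reads. A model start 1355 and 1315 bases upstream of the annotated start had 6 and 4 reads. Kcnk6 had 1 spliced and 1 single-exon read in replicate 2 and none of its annotated transcripts.

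The lists of genes that act with these channels were described by counts, beside the background of 3.41% called. Of 42 other potassium channel genes 31 had reads, 5 were tested and 0 were called, with a median log2 ratio of -0.22, beside -0.01 over all genes tested. The most abundant was Kcnn2, a calcium-activated channel, with 127 reads in replicate 1 and 154 in replicate 2. It was followed by Kcnh2, a voltage-gated channel, with 28 and 24 reads, Kcnj8, the pore of an ATP-sensitive channel, with 25 and 12, and Kcnma1, a large-conductance calcium-activated channel, with 16 and 16. The mean level of Kcnk3, not corrected for transcript length, exceeded that of every other potassium channel gene of this list and of the K2P family.

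Of 24 genes of membrane voltage and calcium entry, 13 were tested and 2 were called. Clcn2, a chloride channel active in the zona glomerulosa and 1 of these 2, had 22 reads in replicate 1 and 45 in replicate 2, a log2 ratio of -1.23 (adjusted p = 0.0082, exact binomial test). Atp1b1 and Atp1b3, which encode beta subunits of the sodium-potassium pump, were not called, with log2 ratios of -0.47 and 0.36, and the median of the list was -0.08. The summed level of 5 zona glomerulosa markers was 2059 CPM in replicate 1 and 2925 CPM in replicate 2, with 0 of 4 tested called. The markers did not move together. Cyp11b2, aldosterone synthase, had 1302 and 2107 CPM (log2 ratio -0.59, adjusted p = 1.90e-21, exact binomial test, short of the 2-fold bar) and Dab2 180.0 and 243 CPM. Hsd3b6 had 265 and 280 CPM, and the values of Wnt4 (295 and 287 CPM) and Agtr1b (16.2 and 7.83 CPM) were higher in replicate 1. The part of cell content in this call was not tested.

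Of 17 hormone receptor and G protein genes 10 were tested and 0 called, with a median log2 ratio of -0.14. Their most abundant were the protein kinase A subunits Prkar1a (693 ± 130 CPM, SD, n = 2) and Prkaca (535 ± 28.0), the corticotropin receptor accessory protein Mrap (256 ± 31.9) and the adenosine receptor Adora1 (239 ± 25.2). Of 23 genes for trafficking and binding partners 20 were tested and 0 called, with a median of 0.07. The most abundant were Anxa2 (754 ± 139 CPM), an annexin that binds the S100 partner of TASK-1, and the 14-3-3 genes Ywhaq (710 ± 63.0), Ywhag (494 ± 77.5) and Ywhae (466 ± 6.19), whose proteins bind the end of TASK-1 and TASK-3.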

How the data were processed

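Long reads of 2 adrenal gland libraries were analysed from the counts of reads per transcript model that the authors deposited: raw whole numbers, a table for each library. Per the file headers and the notes beside them, reads were aligned to mm10 and annotated against GENCODE M21, and TALON wrote the models. The aligner, the sequencing platform and how reads were given a strand are not stated there. Reads of a CAST-derived allele were thus placed on a B6 reference. Exon coordinates came from the deposited annotation and, for sequences, from GENCODE M21, whose exons equalled the deposited ones for all 17 annotated transcripts of the 5 genes.

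Reads were summed per gene over every class. Spike-in reads, 5770 in replicate 1 and 5196 in replicate 2, were left out. An antisense model is of the class antisense and overlaps the span of a gene's annotated transcripts on the other strand by at least 1 base. Gene reads (at least 20 in sum) were compared by a two-sided exact binomial test at TMM-scaled library sizes (edgeR 4.0.16, R 4.3.3). The quasi-likelihood test needs replicated groups and could not be fitted. Ratios are replicate 1 over replicate 2 with 1 CPM added. Shares of the dominant transcript and antisense against sense reads were compared by two-sided Fisher's exact tests. All p-values were adjusted by Benjamini-Hochberg over all genes tested, and compare these libraries only. Wilson 95% intervals and limits of 3 reads cover counting error only, since reads carry no molecular identifiers here. The gene and share tests were tried on simulated counts that held counting error only. The gene test called 58% of genes set 2.5-fold higher in replicate 1, 90% of those set 4-fold higher and 0.0892% of unchanged genes. The share test called 34.5% of shares moved by 25 points and 0.0584% of unchanged ones. DESeq2 1.42.0 size factors served as an alternative, and Python 3.11.15, scipy 1.17.1, pandas 2.3.3 and matplotlib 3.10.9 were used.

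The genes and lists were chosen with earlier results of these data known. The text names every member and antisense model, annotated transcripts with reads, the most abundant new models, the other K2P genes, genes sharing a member's body, and of each further list the 4 most abundant genes and those called, apart from 2 genes that are not reported here. The inner transcript ends, the reading frame, the Kcnk2 exons and the promoters were chosen after their values were seen.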

Additional observations from a re-analysis of the deposited data

How the results depend on the processing

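Levels depended on the class of reads counted. Without the genomic class, Kcnk3 averaged 2888 CPM and Kcnk9 12.0 CPM, and with annotated models alone Kcnk3 averaged 2782, Kcnk9 5.94 and Kcnk2 19.4 CPM. The share of Kcnk3-201 was 96.3% without the genomic class, since single-exon reads leave its denominator. With models of more than 1 exon alone, antisense reads on Kcnk3 were 0 per 100 sense reads, since all its antisense models have a single exon. Under the 3 other overlap and read rules the mean was 7.56 to 7.58 and the libraries differed in the same direction (adjusted p between 1.00e-06 and 2.57e-06, Fisher's exact test). An adjusted p alone called 893 genes; under the other settings 237 to 305 were called. Kcnk5 lost its call with DESeq2 size factors, without the genomic class and with the length trend removed (adjusted p = 0.0658, 0.0504 and 0.106, exact binomial test), and the cause was not tested. Leaving out a library moved the mean level of Kcnk3 between 3192 and 3904 CPM, of Kcnk1 between 35.0 and 42.3, of Kcnk9 between 29.8 and 38.7, of Kcnk2 between 22.5 and 32.9 and of Kcnk6 between 0 and 3.13 CPM; the share of Kcnk3-201 between 73.3% and 82.6%, that of Kcnk1-201 between 92.6% and 96.4%, and antisense reads per 100 sense reads between 5.22 and 9.95 on Kcnk3 and between 0 and 5.26 on Kcnk9. Without models of 1 base, a setting chosen after seeing the data, Kcnk9 averaged 26.8 CPM and its log2 ratio was -0.22 in place of 0.47, since 12 reads of replicate 1 leave its count. No other member changed the sign of its log2 ratio under any setting. Kcnk9 without the genomic class fell short of 20 reads and gave no ratio. Antisense reads per 100 sense reads were not computed for Kcnk6, which had 0 sense reads in replicate 1. No paired analysis was possible because the 2 libraries form a single group. With 18 to 31 reads per library, shares within Kcnk1, Kcnk2 and Kcnk9 are held only to within the wide intervals given.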
